A study of Rattus norvegicus with 4 samples.

Results

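Metallothionein and the antioxidant enzymes of rat liver were followed on 22 of the 1936 features of a spotted cDNA array. They were chosen by name: every feature with a single gene symbol that was Mt1, Cat, Hmox1, Gclc, Gclm or Gsr, or that belonged to the Gpx, Prdx or Sod families. These 22 features stood for 12 genes, with 1 feature of Mt1, 7 of glutathione peroxidases (Gpx1, Gpx2, Gpx3, Gpx4), 5 of peroxiredoxins (Prdx2, Prdx4, Prdx6), 6 of superoxide dismutases (Sod1, Sod2, Sod3) and 3 of Gclm. No feature carried Cat, Hmox1, Gclc or Gsr alone, so these 4 genes were not analysed here. Features of a gene are told apart by their number in the table of values.

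The livers came from male Sprague-Dawley rats killed 24 h after an intraperitoneal dose of 75 mg/kg α-naphthylisothiocyanate (ANIT), a toxicant of the bile duct epithelium that causes cholestasis, or after olive oil, its vehicle. RNA of 3 rats was mixed per condition, which gave 1 pool of ANIT-treated and 1 pool of oil-treated liver. Both pools were hybridised together on 4 arrays, with swapped dyes: the ANIT pool carried Cy5 on arrays 1 and 3, and Cy3 on the other two. The arrays were taken as technical repeats, so every SD below covers hybridisation and dye, the spread between rats is unknown, and no p-value is given.

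Metallothioneins are small cysteine-rich proteins that bind zinc and copper and scavenge radicals, and their genes are induced in liver by metals, glucocorticoids and inflammatory cytokines. Superoxide dismutases turn superoxide into hydrogen peroxide. Glutathione peroxidases, many of which carry selenocysteine, and peroxiredoxins, which use a reactive cysteine, then reduce peroxides, the former at the expense of glutathione. Gclm is the modifier subunit of the ligase that limits glutathione synthesis and a known target of the stress-activated transcription factor Nrf2.

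The promoter of Mt1 is shown because Mt1 was the member whose ratio stood apart, and that of Sod1 because its 3 features gave like ratios close to those of the other enzymes. Both windows run from 250 bases before to 50 bases after the annotated start, 5′ to 3′ on the gene's strand, from RefSeq on the rat assembly GRCr8. Mt1 lies at chr19:10832926-10833225 on the minus strand and Sod1 at chr11:42942573-42942872 on the plus strand. Capitals mark matches to the core of the metal response element, the site bound by the zinc-sensing factor Mtf1, written TGCACNC or TGCGCNC and searched on both strands.
Mt1: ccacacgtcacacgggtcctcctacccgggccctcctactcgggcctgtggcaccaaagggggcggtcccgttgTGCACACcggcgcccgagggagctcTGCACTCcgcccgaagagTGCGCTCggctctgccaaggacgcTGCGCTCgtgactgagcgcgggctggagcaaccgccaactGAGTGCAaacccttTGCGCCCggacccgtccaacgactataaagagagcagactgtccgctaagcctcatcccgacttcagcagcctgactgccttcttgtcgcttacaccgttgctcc
Sod1: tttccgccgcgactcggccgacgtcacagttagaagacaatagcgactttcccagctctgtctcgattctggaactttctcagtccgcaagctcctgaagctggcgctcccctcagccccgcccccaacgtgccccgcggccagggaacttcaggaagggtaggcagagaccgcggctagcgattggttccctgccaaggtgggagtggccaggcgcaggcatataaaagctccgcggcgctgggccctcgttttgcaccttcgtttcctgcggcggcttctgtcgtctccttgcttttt

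The Mt1 window held 6 matches to the metal response element, 5 on the gene's strand and 1 on the other, all between 176 and 49 bases before the start. Of 33469 promoter windows of the same length, 24.2% held at least 1 match and 13 windows (0.039%) held 6 or more. Windows were at hand for 10 of the 12 genes, all except Prdx6 and Sod3, and matches were found in those of Mt1, Gclm (2 matches) and Prdx4 (1 match). The core of the antioxidant response element bound by Nrf2, TGACNNNGC, occurred once each in the windows of Mt1, Gclm, Gpx2, Prdx4 and Sod2, against 12.1% of all windows. The Stat element TTCNNNGAA occurred in the windows of Gclm and Gpx2 (8.87% of all windows), and TGTTCT, part of the glucocorticoid receptor site, in that of Gpx3 (20.7% of all windows). No matches of different motifs overlapped in these windows. A match describes the letters only, and binding was not measured.

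**Figure D1:**
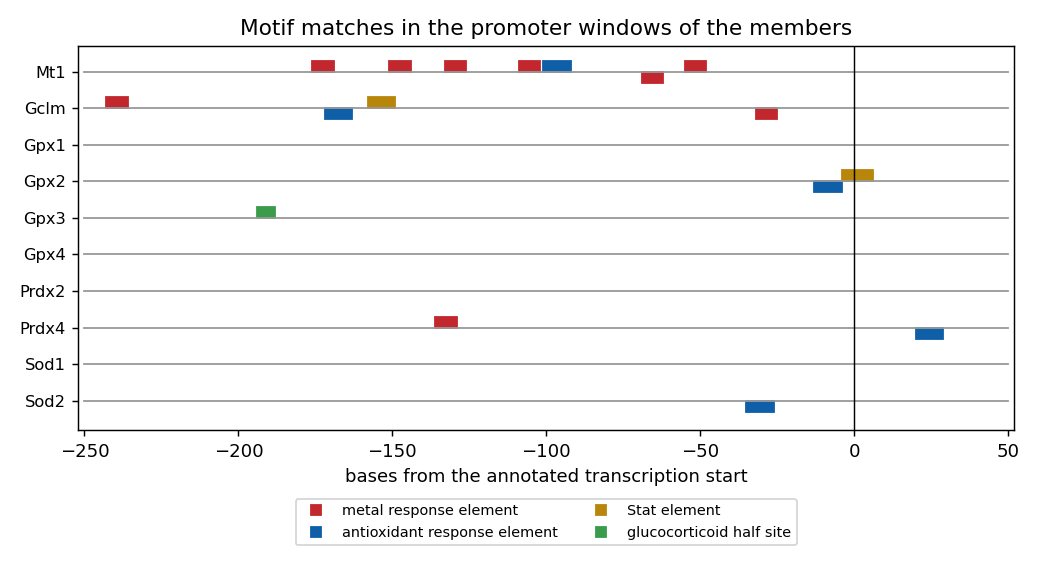
Motif matches in the promoter windows of 10 member genes, plotted by distance in bases from the annotated start, with boxes above a line for the gene's strand and below it for the other strand. Mt1 has 6 matches to the metal response element, while Gpx1, Gpx4, Prdx2 and Sod1 have no match to any of the 4 motifs (for Gpx4, 3 windows are drawn on 1 line).

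Ratios are given on the log2 scale as ANIT pool over olive oil pool, a direction that is likely but not stated: it rests on the channel order in the labels. The logarithm was read as base 2, which no label states, and natural logarithms would make each fold larger. A feature was called higher or lower where its mean over the 4 arrays was at least 2-fold with the same sign on every array. In all, 15 features (0.775%) were called higher and 59 (3.05%) lower. Ratios carry no levels, so the liver markers could not be checked for presence, and fewer cells of a type and less RNA per cell cannot be told apart.

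Mt1 was the member called higher in the ANIT pool, and none of the 21 enzyme features was called in either direction. The 1 call made up 4.55% of the 22 features, beside 0.775% of all features called higher. For lower calls the 0 of 22 stands beside a background of 3.05%, a share too small for 22 features to differ from it in a readable way. The enzyme features had mean ratios between -0.83 and 0.18, and 20 of the 21 lay within 0.5 of 0, the exception being Gpx1 feature 45.

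**Figure D2:**
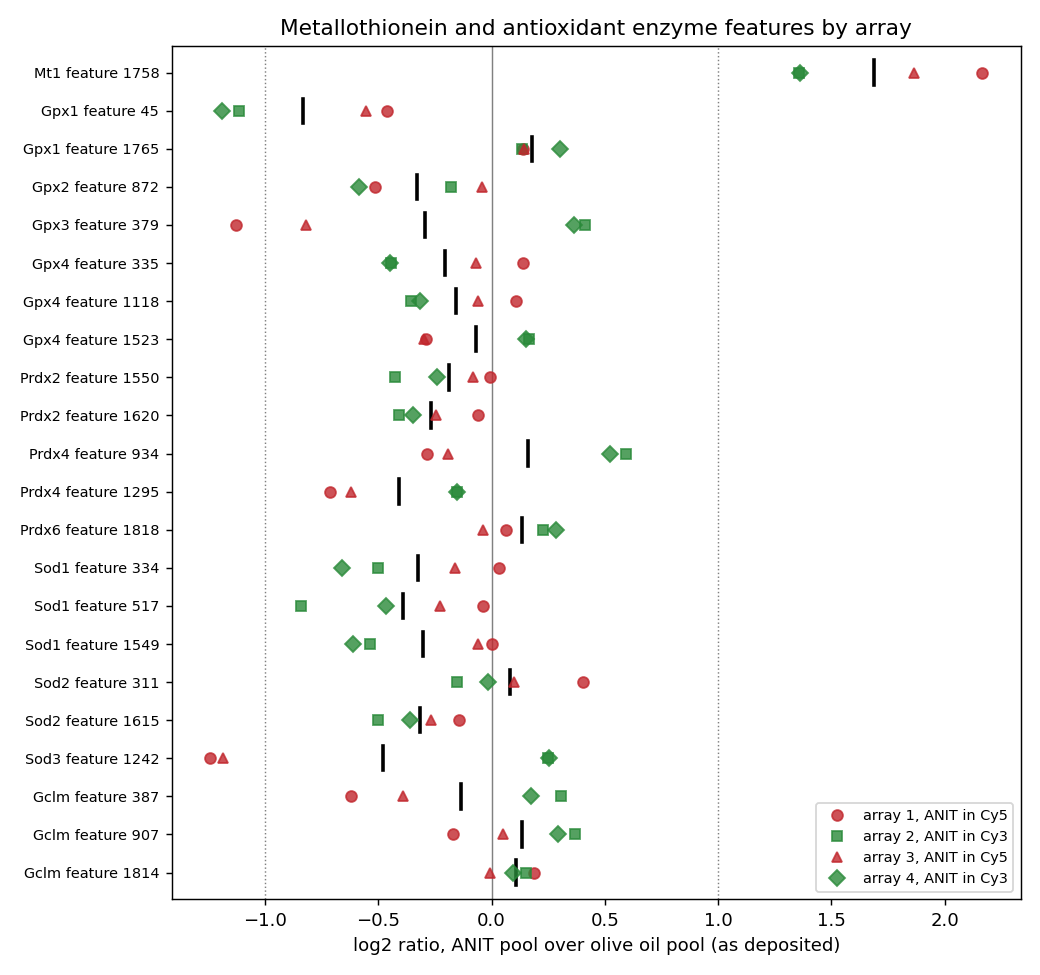
Log2 ratio of each of the 22 features (rows) on the 4 arrays, with red symbols for ANIT in Cy5, green symbols for ANIT in Cy3, black bars for the mean and dotted lines at 2-fold. Mt1 lies between 1.36 and 2.16 on the arrays, above every value of the enzymes, whose single-array values run from -1.24 to 0.59.

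Mt1 (feature 1758) had log2 ratios of 2.16 on array 1, 1.36 on array 2, 1.87 on array 3 and 1.36 on array 4. All 4 values lay above the highest value of any enzyme feature on any array, 0.59, and the arrays with ANIT in Cy5 (mean 2.02) gave larger ratios than those with ANIT in Cy3 (mean 1.36). The mean was 1.69 ± 0.40 (SD, n = 4 hybridisations), a 3.22-fold difference between the pools (5.41-fold if the values are natural logarithms). By its mean Mt1 ranked 4 of all 1936 features, and 1 of the 3 features above it carried a gene symbol. With the ratio turned to olive oil over ANIT, its mean would be -1.69 and its rank 4 from the lowest. When each array was centred on its own median, which raised the mean of every feature by 0.17, the Mt1 ratios were 2.84, 1.04, 2.51 and 1.02 and their mean 1.85.

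Set against the enzymes within each array, a difference that centring cannot move, Mt1 exceeded the median of the 18 peroxide and superoxide features by 2.21, 1.62, 2.04 and 1.64 log2 units on arrays 1 to 4. The mean difference was 1.88 ± 0.29 (SD, n = 4 hybridisations), or 3.68-fold, and it was above 0 on all 4 arrays. Taken by class, the mean difference was 1.90 ± 0.40 from the glutathione peroxidases, 1.83 ± 0.37 from the peroxiredoxins and 1.97 ± 0.19 from the superoxide dismutases. From the 3 Gclm features it was 1.61 ± 0.60, with 2.33 and 1.87 where ANIT was in Cy5 and 1.05 and 1.19 where it was in Cy3. These 4 class differences overlapped within their SD. Even the highest enzyme feature of each array lay below Mt1, by 1.76, 0.76, 1.72 and 0.84.

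**Figure D3:**
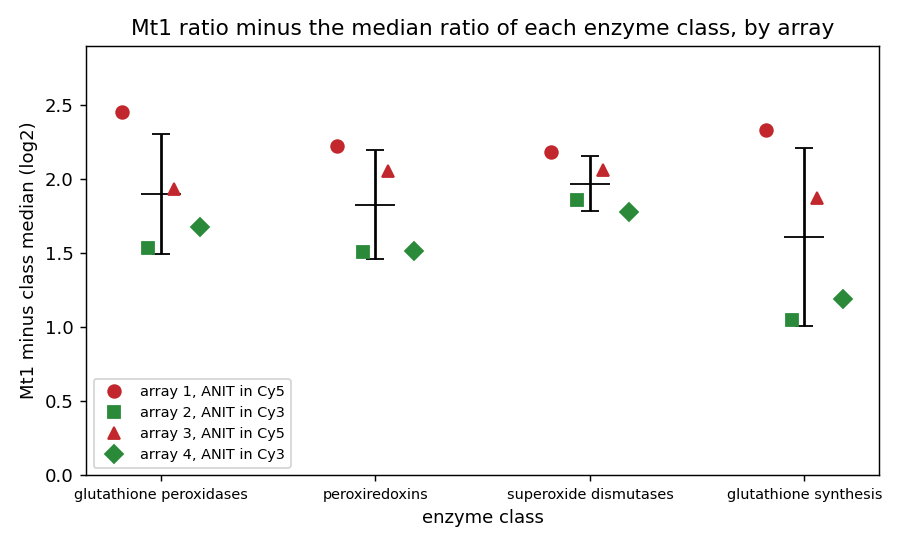
Mt1 ratio minus the median ratio of each enzyme class (log2, vertical axis) on the 4 arrays, with black bars for the mean and SD. All 16 differences lie above 1, and in each class both arrays with ANIT in Cy5 (red) lie above both with ANIT in Cy3 (green).

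The genes whose features lay nearest to Mt1 over the 4 arrays, by Euclidean distance between log2 ratios, were Cyp1a2 (distance 0.48), Lbp (0.54), Alpl (0.77), Cavin3 (1.03) and Orm1 (1.28). Cyp1a2 is a cytochrome P450 induced through the aryl hydrocarbon receptor, Lbp and Orm1 are acute phase proteins and Alpl is an alkaline phosphatase. Cyp1a2 showed the same order of the dye orientations as Mt1, with 1.84 and 1.52 where ANIT was in Cy5 and 1.29 and 1.36 where it was in Cy3. Lbp differed less between orientations, at 1.92, 1.67, 1.71 and 1.69 on arrays 1 to 4. A pair of features without a gene symbol lay nearer to Mt1 than any named gene. Feature 1757, next to Mt1 in number, gave 2.19, 1.31, 1.89 and 1.46 (distance 0.11), and feature 1891 gave 2.02, 1.16, 1.76 and 1.39 (distance 0.27). These distances describe 4 hybridisations of the same pools.

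The other metallothionein features, those of Mt3 and Mt4, did not show the Mt1 ratio. No feature carried Mt2A alone, so that metallothionein was not analysed here. Mt3, first known as a brain form, had -0.72, 0.75, -0.32 and 0.50 on arrays 1 to 4, and Mt4, known from stratified epithelia and added after its value was seen, had -0.51, 0.34, -0.63 and 0.69. Both had negative ratios on the Cy5 arrays of the ANIT pool and positive ones on its Cy3 arrays, so that their means, 0.05 ± 0.69 and -0.03 ± 0.65, were small against the difference between orientations. Hmox2, the constitutive haem oxygenase, had the same pattern, with -0.90, 0.16, -1.29 and 0.66 and a mean of -0.34 ± 0.91.

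Among the glutathione peroxidases, the median of the mean ratios was -0.20 over 7 features, and 0 of 7 were called. Gpx1, the abundant cytosolic enzyme, gave discordant features. Feature 45 had -0.46, -1.11, -0.56 and -1.19 on arrays 1 to 4, a mean of -0.83 ± 0.37, which is the lowest mean among the members and stands at percentile 4.29 of all features (0.83 and percentile 95.8 with the ratio turned). Feature 1765 had 0.14, 0.14, 0.14 and 0.30, a mean of 0.18 ± 0.08. Feature 45 was thus below 0 and feature 1765 above 0 on every array, and their difference of 1.01 ± 0.43 had the same sign on all 4. Of 340 genes with several features on the array, 14 had a wider gap between their highest and lowest feature than Gpx1, and the median gap was 0.20. Which of the 2 features measures Gpx1 was not tested. At 1.5-fold, a limit that 6.92% of all features passed as lower, feature 45 would be called. With centred arrays it stood at 0.21, -1.43, 0.09 and -1.54 and no longer had 1 sign. Feature 1765 then lost its single sign too.

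By their means, the features of the other glutathione peroxidases lay closer to 0 than the lower feature of Gpx1. The features of Gpx4, the enzyme that reduces lipid peroxides in membranes, had means of -0.20 ± 0.29, -0.16 ± 0.22 and -0.07 ± 0.26, and none had the same sign on all arrays. The largest difference between them, 0.14 ± 0.55, was smaller than its SD. It was that of feature 1523 from feature 335, which gave -0.43, 0.61, -0.23 and 0.60 on arrays 1 to 4 and so changed sign with the dye. Gpx2, known from the gut epithelium, had -0.51, -0.18, -0.04 and -0.58, a mean of -0.33 ± 0.26 with all arrays below 0. With centred arrays Gpx2 no longer had the same sign on all arrays. Gpx3, the secreted plasma enzyme made largely by kidney, had -1.13, 0.41, -0.82 and 0.36. Its sign followed the dye orientation, and the mean of -0.29 ± 0.80 was smaller than its SD.

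The 5 peroxiredoxin features had a median of -0.19, and 0 of 5 were called. Both features of Prdx2, a cytosolic peroxiredoxin abundant in red blood cells, were slightly below 0 on all arrays, with means of -0.19 ± 0.19 and -0.27 ± 0.15 and a difference of 0.08 ± 0.08 between them. With centred arrays neither Prdx2 feature had the same sign on all arrays. Prdx4, the peroxiredoxin of the endoplasmic reticulum, had -0.28, 0.59, -0.19 and 0.52 on feature 934 and -0.71, -0.15, -0.62 and -0.15 on feature 1295. Feature 934 exceeded feature 1295 by 0.57 ± 0.17 with the same sign on all 4 arrays, and 55 of the 340 genes had a wider gap. With centred arrays feature 934 stood at 0.39, 0.28, 0.45 and 0.18, and feature 1295 at -0.04, -0.47, 0.02 and -0.50. Prdx6, which also has phospholipase activity, had 0.06, 0.23, -0.04 and 0.29, a mean of 0.13 ± 0.15 that was smaller than its SD.

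Of the superoxide dismutase features, 5 of 6 had a mean below 0, the median was -0.32 and 0 were called. The 3 features of Sod1, the cytosolic copper and zinc enzyme, had means of -0.32 ± 0.32, -0.39 ± 0.35 and -0.30 ± 0.32. The widest difference among these features was 0.09 ± 0.19, less than its SD. On feature 1549 the arrays gave 0.0002, -0.54, -0.06 and -0.61, so the ratio lay near 0 with ANIT in Cy5 and lower with ANIT in Cy3, and features 334 and 517 followed the same course. Sod2, the mitochondrial manganese enzyme, had 0.40, -0.15, 0.10 and -0.01 on feature 311 and -0.14, -0.50, -0.27 and -0.36 on feature 1615. Feature 311 was above feature 1615 on all 4 arrays, by 0.40 ± 0.10, which exceeded the spread between arrays. Sod3, the extracellular enzyme, had -1.24, 0.25, -1.19 and 0.26 (mean -0.48 ± 0.85), and like Gpx3 it changed sign with the dye in the values as deposited. With centred arrays Sod3 stood at -0.57, -0.07, -0.54 and -0.09, all below 0. Gpx3 then stood at -0.45, 0.10, -0.18 and 0.02 and still changed sign.

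Gclm had means of -0.13 ± 0.44, 0.14 ± 0.24 and 0.11 ± 0.09 on its features 387, 907 and 1814. Feature 1814, the one least moved by the dye, had 0.19, 0.15, -0.01 and 0.09. None of the 3 kept 1 sign on all arrays, and the widest difference among them was 0.27 ± 0.21.

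Ordered by gene, by the median of its features, the enzymes ran from Sod3 (-0.48), Gpx2 (-0.33), Gpx1 (-0.33), Sod1 (-0.32) and Gpx3 (-0.29) through Prdx2 (-0.23), Gpx4 (-0.16), Prdx4 (-0.12) and Sod2 (-0.12) to Gclm (0.11) and Prdx6 (0.13). Each step between neighbours in this order was smaller than the SD over arrays of at least 1 of the neighbours' features. The median of all features was -0.25, beside -0.20 for the 21 enzyme features. With centred arrays these medians were -0.09 and -0.04, and 10 of the 22 members had a mean above 0 in place of 7 (31.8%, beside 22.8% of all features as deposited). The features that changed sign were Gclm feature 387 and Gpx4 features 1118 and 1523.

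How far a ratio followed the dye was measured by the dye contrast. This value, the mean with ANIT in Cy5 minus the mean with ANIT in Cy3, divided by 2, was above 0 for 12 of the 22 members (54.5%), beside 21.9% of all features. Its median was 0.08 in the members and -0.40 over all features. A contrast of -0.5 or below was found in 2 members (9.09%), Gpx3 and Sod3, both secreted proteins, beside 43.2% of all features. The means of the orientations had opposite signs in 9 members (40.9%), beside 63.2% of all features, and 9 members (40.9%) had the same sign on all 4 arrays, beside 29.5%. These shares describe the features only, since signal intensity was not at hand, and its part in the dye contrast was not tested. Centring, which subtracts the dye shift of the typical feature, turned the enzyme medians of -0.06, -0.15, -0.16 and -0.15 on arrays 1 to 4 into 0.62, -0.47, 0.48 and -0.50. With centred arrays 3 members in place of 9 had the same sign on all 4 arrays. They were Mt1, Sod3 and 1 feature of Prdx4, so the sign agreement of most enzyme features depended on leaving the arrays uncentred.

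**Figure D4:**
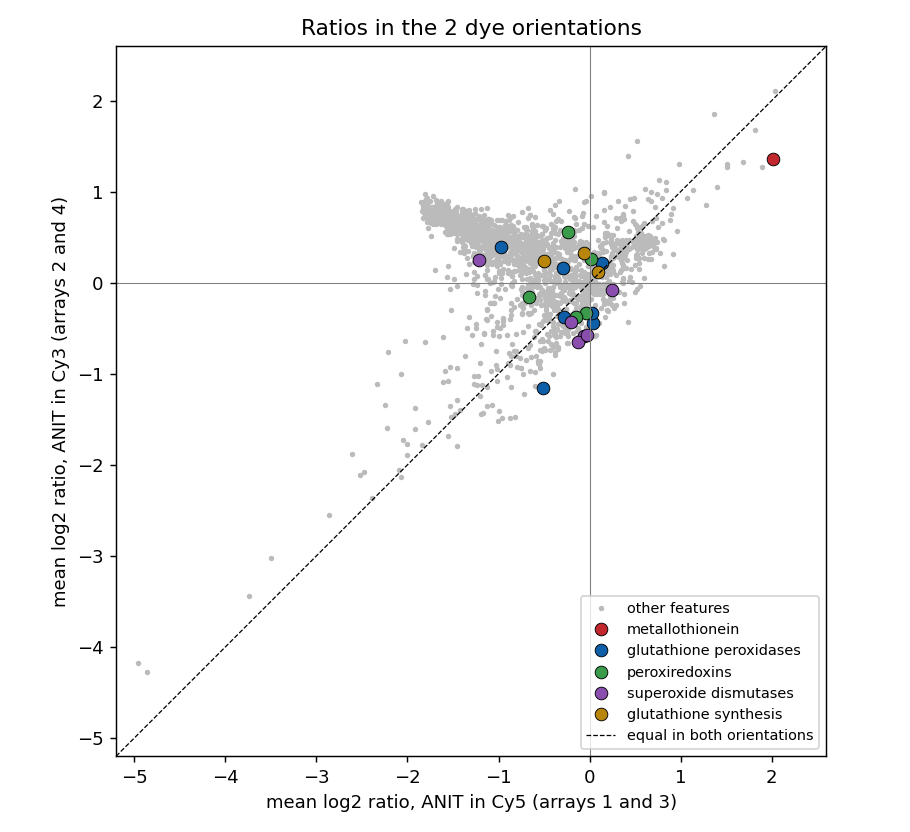
Mean log2 ratio of every feature with ANIT in Cy3 (vertical axis) against that with ANIT in Cy5 (horizontal axis), with members coloured by class, other features in grey and a dashed line where both are equal. Mt1 lies at 2.02 and 1.36 in the upper right, Gpx3 and Sod3 lie with the many features below 0 in Cy5 and above 0 in Cy3, and most other members lie near the origin.

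Genes that work beside these enzymes were read from lists, by feature and by the same rule. Of all features 0.775% were called higher and 3.05% lower, so 0 calls in a short list cannot be told from these shares. Of 7 genes of the Nrf2, thioredoxin and NADPH supply list, each with 1 feature, 0 were called. Sqstm1, an autophagy receptor, had 0.49 ± 0.08, Nqo1, a quinone reductase, 0.48 ± 0.38, and Abcc2, the canalicular export pump, 0.40 ± 0.04, while Me1, the malic enzyme that supplies NADPH, had -0.86 ± 0.36. Sqstm1 and Abcc2 varied little, from 0.42 to 0.58 and from 0.35 to 0.45. The list's median was 0.22, or 0.39 with centred arrays, beside -0.25 over all features. The 8 genes of iron, haem, copper and zinc handling had 10 features, of which 0 were called, with a median of -0.06. Cp, the copper protein ceruloplasmin, had 0.50, 1.41, 0.35 and 1.38 on feature 1862 (mean 0.91 ± 0.56), with larger ratios where ANIT was in Cy3. On feature 57 its mean was 0.24 ± 0.11. Ccs, which loads copper into Sod1, had -0.68 ± 0.35, and Blvra, a biliverdin reductase, had -0.51 ± 0.31.

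The list of sources of superoxide and peroxide held lower features. Of its 17 features (6 genes), 4 were called lower and 0 higher, with a median of -0.18, beside 3.05% and 0.775% of all features called. Hao2, a peroxisomal hydroxyacid oxidase that makes hydrogen peroxide, had -1.85, -2.15, -2.16 and -1.64 on feature 209 and a mean of 0.18 on its other feature. Maob, the monoamine oxidase of the outer mitochondrial membrane, had -1.50, -1.29, -1.71 and -0.90, a mean of -1.35 ± 0.35. The ethanol-inducible P450 Cyp2e1 gave the other 2 calls, at -1.24 ± 0.14 and -1.05 ± 0.14, while its 5 remaining features lay between -0.46 and -0.10. Averaged per gene, 1 gene of this list, Maob, was lower. Por, the P450 reductase, was not called and gave discordant features, with means of 0.93 ± 0.12, 0.71 ± 0.29, 0.58 ± 0.12, -0.08 ± 0.14 and -0.35 ± 0.46. Catalase itself was not analysed here. Among the 7 other peroxisome genes (11 features, median -0.34), the 1 lower feature was that of Hao2, already counted above, and Abcd3, a peroxisomal fatty acid carrier, had -0.70 ± 0.21.

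Genes that respond to inflammation or glucocorticoids, which also act on Mt1, were read in the same way. Acute phase and Stat3 genes (14 genes, 23 features) had 3 features called higher, Lbp (1.75 ± 0.12), Orm1 (1.06 ± 0.29) and Stat3 (1.00 ± 0.11), and 0 lower. Stat3 feature 1418 had 0.86 ± 0.23 and was not called. Of all features, 0.775% were called higher and 3.05% lower. The list's median was 0.02, beside -0.25 over all features. A2m, an acute phase protein, lay below 0 on every array, at -1.23, -0.15, -1.07 and -0.12 (mean -0.64 ± 0.59). Without array 1 there was 1 higher feature, a setting for which the share of all features was not taken. With centred arrays there were 5 higher features, beside 1.14% of all features. At 1.5-fold, 6 features of the list were higher and 1 was lower, beside 2.48% and 6.92% of all features. Glucocorticoid-responsive genes (7 genes, 14 features) had 0 calls and a median of -0.29. On their lowest features Sgk1 had -0.92 ± 0.50 and Nr3c1, the glucocorticoid receptor, -0.82 ± 0.35. Their other features had means of -0.80, -0.54 and 0.01 for Sgk1 and -0.43 and -0.28 for Nr3c1. Pck1 had -0.58 ± 0.51 on its only feature.

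Markers of other cell types had no feature called, beside 0.775% of all features called higher and 3.05% lower, shares too small for so few features to differ from them readably. The medians were -0.31 for cholangiocytes (5 features of 4 genes), -0.28 for endothelial cells (4 features), -0.28 for stellate cells and fibroblasts (4 features of 3 genes) and -0.13 for neutrophils (2 features of S100a9). With ANIT in Cy5 the cholangiocyte median was -1.27 and with ANIT in Cy3 it was 0.38, and the other 3 lists also changed sign. Of 11 hepatocyte features (4 genes, median -0.14), 2 were lower, both of Cyp2e1, beside 3.05% of all features called lower. The hepatocyte median too changed sign with the dye, from -0.90 with ANIT in Cy5 to 0.05 with ANIT in Cy3. Of the genes for plasma proteins made by hepatocytes, Ttr had -0.13 ± 0.27 and Apoa1 0.07 ± 0.20, and Serpina1 had -1.80, 0.75, -1.76 and 0.84 on feature 1874 (mean -0.49 ± 1.49). No macrophage or red blood cell marker was measured under the symbols listed, nor any selenoprotein outside the Gpx family. The part of cell composition in the Mt1 ratio was not tested.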

How the data were processed

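The deposited values, 1 per feature and array, are log ratios of 2-colour arrays and were read as log2. Per the labels, the authors mixed liver RNA of 3 rats per condition, purified poly(A) RNA, labelled cDNA with Cy3 and Cy5 and hybridised both pools to a spotted cDNA array with dyes swapped. Background correction and normalization, like log base and direction, were not stated in the labels or the file. The medians of arrays 1 to 4 were -0.68, 0.31, -0.64 and 0.35, so arrays were not centred. Values were used as deposited.

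Members were found through the platform annotation, and all 12 gene symbols matched RefSeq (GRCr8) by gene ID. Of all features, 1432 had 1 symbol, 19 several and 485 none. The 4 arrays of the same pools are technical repeats, so results are means, SDs and calls (2-fold and 1 sign on 4 arrays), with no p-value. Their number limits the precision.

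All members were named, with up to 4 genes per list (largest absolute ratio) and the 5 named genes nearest to Mt1. For some lists fewer are printed, and A2m was added to the acute phase list after its value was seen. The members, lists and limits were chosen with earlier results of these data known. Alternatives tried were a lower and a higher size limit, centring, either dye orientation alone, arrays left out 1 at a time, gene means, members that follow the dye left out, natural logarithms and the opposite sign. The calling step was tested on simulated data. Python 3.11.15, numpy 2.4.6, pandas 2.3.3 and matplotlib 3.10.9 were used.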

Additional observations from a re-analysis of the deposited data

Results flagged for a closer look

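Gpx1 feature 1765 had 1 array apart from the others: array 4 stood at 0.30, while arrays 1 to 3 lay between 0.136 and 0.143, and the gap to the nearest array made up 0.958 of the whole range. The limit used flags about 1 in 20 features by chance where the 4 values are independent. Here the arrays form dye-swapped pairs, so that share does not apply to the 22 features tested in this way. The ratios of feature 1765 are small on all 4 arrays, and it was not called at any size limit tried.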

How the results depend on the processing

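Mt1 passed the size rule under every alternative run on it, with a mean log2 ratio of 1.61 to 1.76 without 1 array, 2.02 with ANIT in Cy5 alone, 1.36 with ANIT in Cy3 alone, 1.85 with centred arrays and 2.43 if the values are natural logarithms. With the ratio read as olive oil over ANIT its mean was -1.69, the difference from the peroxide and superoxide enzymes -1.88, the median of the members 0.20, and the calls became 0 higher and 1 lower. The number of lower members rose from 0 to 1 in 4 settings: at 1.5-fold, with natural logarithms (Gpx1 feature 45 at -1.20) and with ANIT in Cy3 alone (the same feature, -1.15), and with ANIT in Cy5 alone (Sod3, -1.21, where 34.5% of all features were lower). Of all features, 6.92% were lower at 1.5-fold, 5.84% with natural logarithms and 2.84% with ANIT in Cy3 alone. In those settings 1 call among the members cannot be told from these shares. The median of the members, -0.20, was -0.032 with centred arrays, -0.10 with ANIT in Cy5 alone, -0.12 with ANIT in Cy3 alone and -0.28 with natural logarithms. Leaving out each array gave -0.22 to -0.18. The Mt1 difference, 1.88, was 2.71 with natural logarithms and 1.84 to 1.92 without 1 array. Counts of higher and lower members were 1 and 0 with each array left out, with gene means and without the features that follow the dye. No paired analysis was possible because the 4 arrays form 1 group of the same 2 pools. Without intensities, weak and strong spots could not be told apart.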
